A study of Mus musculus with 20 samples.

Results

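The fatty acid desaturases Scd1, Scd2, Fads1, Fads2 and Fads3 were described in mouse liver with and without Hsd17b12 in hepatocytes. The 5 genes were taken by symbol from the table of 20914 genes, in a choice made with earlier results of these data known. All 5 passed the filter on low counts that left 13670 genes for testing. Every one of the 5 had a higher level in knockout (KO) than in wild-type (WT) liver at an adjusted p under 0.05. Scd2 rose most, 19.0-fold as a ratio of means, followed by Scd1 at 4.29-fold, Fads2 at 3.24-fold, Fads1 at 2.05-fold and Fads3 at 1.60-fold. Among all tested genes 28.4% were called higher and 30.5% lower in KO, so that a call by itself was common in these livers.

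Desaturases place a double bond in the carbon chain of a fatty acid. Scd1 and Scd2 encode stearoyl-CoA desaturases, which act at the delta-9 position of saturated acyl-CoAs and make the monounsaturated palmitoleate and oleate; Scd1 is the main form of adult mouse liver, while Scd2 is best known from brain and from the liver of newborn mice. Fads2 encodes the delta-6 desaturase and Fads1 the delta-5 desaturase, which take turns with chain elongation to make arachidonic acid, eicosapentaenoic acid and docosahexaenoic acid from the essential fatty acids of the diet. Fads3 lies in the same gene cluster, and its enzyme introduces a double bond into the sphingoid base of ceramides. All of these enzymes sit in the endoplasmic reticulum and take electrons from cytochrome b5. Hsd17b12 encodes the 3-ketoacyl-CoA reductase of the elongation cycle there, which works on the same chains. Transcription of Scd1, Fads1 and Fads2 in liver is known to respond to the factor SREBP-1c, encoded by Srebf1, and to nuclear receptors of fatty acids and oxysterols.

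Total RNA came from the left lateral lobe of the liver of 20 male mice of the strain LiB12cKO at 8 weeks of age. The 10 KO mice were HSD17B12lox/lox;Alb-CreCre/WT and the 10 WT mice HSD17B12lox/lox;Alb-CreWT/WT, so that both groups carried the floxed gene and only KO mice carried Cre. Cre was driven by the albumin promoter, which acts in hepatocytes. Which liver cells lost or kept the gene was not measured here. An effect of Cre and an effect of the lost gene cannot be told apart in this design. Mice are named by genotype and by the animal number of the labels, for example KO_391. The labels name no litter, date or batch.

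The libraries held 16693195 to 29124124 fragments assigned to genes. Levels are given as CPM, counts per 1000000 fragments with TMM scaling. Hsd17b12 RNA had 47.9 ± 2.48 CPM in KO livers and 151 ± 18.5 CPM in WT livers (mean ± SD, n = 10 mice per genotype here and below), with no overlap. Counts per gene do not show which exons or cells the RNA left in KO livers came from. The libraries differed in composition: scaling by total fragments alone in place of TMM factors, which assume that most genes are unchanged, shifted the middle log2 fold change over the tested genes from -0.021 to 0.44. The share of fragments that mapped to more than 1 place also differed, from 2.09% to 8.46% in KO with KO_391 highest, and from 3.38% to 14.1% in WT with WT_441, WT_415 and WT_429 lowest. With TMM factors 3877 genes were higher and 4163 lower in KO; with library size alone 9354, or 68.4%, were higher and 919, or 6.72%, lower. These shares are the background for the counts of members given under each scaling.

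All 5 genes lie on chromosome 19 in 2 groups (mm10, coordinates of the deposited annotation). Scd1 is at chr19:44394450-44407709 on the minus strand and Scd2 at chr19:44293676-44306864 on the plus strand, each with 6 exon blocks. Fads3 at chr19:10041548-10059671 (plus strand), Fads2 at chr19:10064164-10101503 (minus) and Fads1 at chr19:10182888-10196874 (plus) are neighbours, each with 12 exon blocks. The deposited Fads2 model is 1508 bases of exon and its span is 1399 bases shorter than in RefSeq, so counts and values per kilobase of Fads2 leave out most of its 3′ end. Exons of Scd2 overlap those of Gm19494 and Mir5114.

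Coding sequences were compared because Scd1 was far more abundant than its relatives, so that fragments shared between copies could move the low counts. Over aligned coding bases of the GENCODE transcripts (GRCm38, release M21 annotation), Scd1 was 89.6% identical to Scd2, 90.5% to Scd3 and 84.2% to Scd4. Stretches of 60 coding bases were compared where they lie within 1 exon of Scd1 and align without a gap to Scd2, Scd3 and Scd4. The one in which Scd1 and Scd2 differed most lies in exon 2 of each gene, at chr19:44406611-44406670 for Scd1 and chr19:44295003-44295062 for Scd2. It is given 5′ to 3′ on the strand of each gene, with bases that differ from Scd1 in capitals.
Scd1: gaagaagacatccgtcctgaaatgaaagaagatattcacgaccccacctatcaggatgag
Scd2: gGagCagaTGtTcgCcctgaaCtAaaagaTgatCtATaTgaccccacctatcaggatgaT
Scd3: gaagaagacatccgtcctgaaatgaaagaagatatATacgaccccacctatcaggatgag
Scd4: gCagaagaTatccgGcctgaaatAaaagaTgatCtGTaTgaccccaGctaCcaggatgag
In this stretch Scd2 differed from Scd1 at 14 bases, Scd4 at 11 and Scd3 at 2. The longest run of coding bases that Scd1 and Scd2 share without a difference is 147 bases over the junction of exons 4 and 5. The same run is given for Scd3 and Scd4, again with differences from Scd1 in capitals.
Scd1 and Scd2: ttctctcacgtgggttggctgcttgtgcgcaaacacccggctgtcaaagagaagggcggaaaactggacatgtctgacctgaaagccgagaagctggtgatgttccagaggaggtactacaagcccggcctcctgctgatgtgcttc
Scd3: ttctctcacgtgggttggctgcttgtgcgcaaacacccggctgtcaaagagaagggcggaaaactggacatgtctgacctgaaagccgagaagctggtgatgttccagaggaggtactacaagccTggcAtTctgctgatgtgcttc
Scd4: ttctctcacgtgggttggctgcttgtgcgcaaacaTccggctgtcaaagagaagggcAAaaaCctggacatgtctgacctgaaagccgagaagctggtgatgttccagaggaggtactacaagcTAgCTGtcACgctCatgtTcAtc
Such shared runs were a small part of the transcripts, but Scd1 was far more abundant. It had 44886 to 301845 fragments per WT mouse and 282021 to 698637 per KO mouse, beside 36 to 209 and 333 to 6290 of Scd2. How far shared fragments moved the low counts was not tested. Of stretches of 50 bases, 4.66% in Scd1, 3.79% in Scd2 and 6.37% in Scd3 occur in another Scd gene. Of the 5356 stretches of 100 bases in the Scd2 transcript 48, or 0.896%, also occur in Scd1, and of the 4733 in Scd1 125, or 2.64%, occur in at least 1 of the other Scd genes. The Fads genes were less alike. Coding identity was 65.9% between Fads1 and Fads2, 68.7% between Fads2 and Fads3 and 61.1% between Fads1 and Fads3, and 0 stretches of 100 bases were shared. The longest run common to Fads2 and Fads3 has 54 bases and spans exons 10 and 11; differences from Fads2 are in capitals.
Fads2 and Fads3: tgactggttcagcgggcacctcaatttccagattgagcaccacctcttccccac
Fads1: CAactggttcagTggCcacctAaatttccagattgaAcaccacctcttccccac
Fads1 differs from that run at 6 bases, so that fragments of the 3 Fads genes could be told apart over nearly their whole length.

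Scd1 was among the most abundant transcripts of KO liver. Its level ran from 11283 CPM in KO_391 over a median of 21323 to 24990 CPM in KO_425 in KO, and from 2368 CPM in WT_389 over a median of 3308 to 13893 CPM in WT_415 in WT. Of the KO mice 9 lay above every WT mouse; KO_391 alone lay below WT_415, and WT_415 stood well above the next WT mice, WT_441 at 7631 and WT_429 at 5906 CPM. The means were 20631 ± 4232 CPM in KO and 4810 ± 3609 CPM in WT (10 mice each, SD). These means gave a log2 fold change of 2.10 with an SE of 0.297. The edgeR quasi-likelihood test had an adjusted p of 4.05e-06, and a two-sided permutation test with 100000 resamples had p = 2e-05. Scd1 took 2.44% ± 0.555 of all assigned fragments in KO and 0.425% ± 0.352 in WT (10 mice each, SD). By level per kilobase of exon (RPKM) it ranked 11 to 40 among all genes in KO mice and 36 to 160 in WT mice. The relative spread was wider in WT, with a coefficient of variation of 75.0% against 20.5% in KO.

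**Figure D1:**
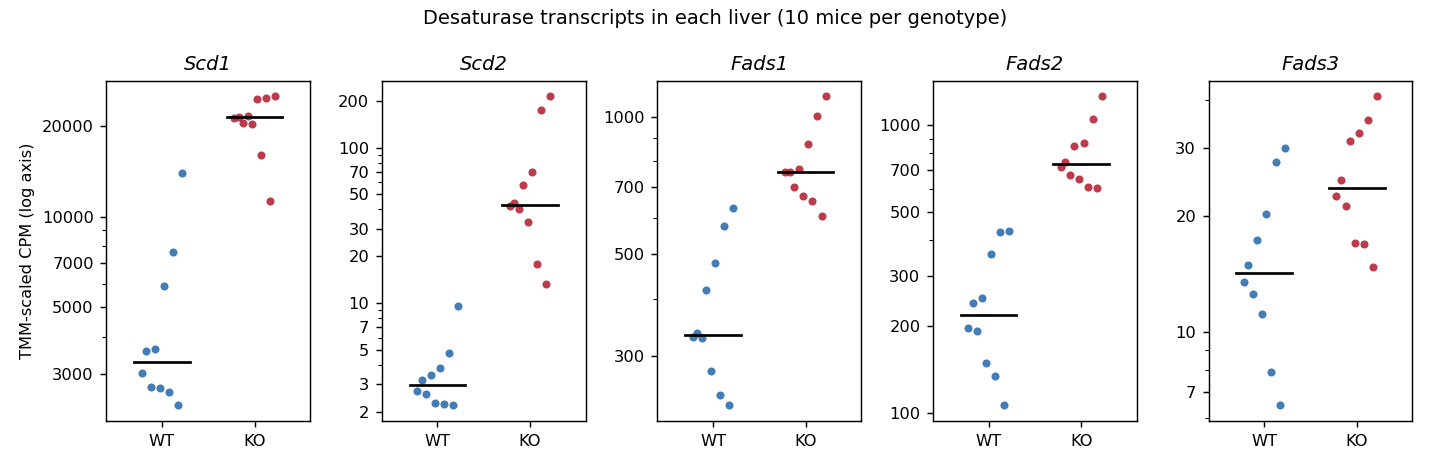
Each point is 1 mouse, with TMM-scaled CPM of the 5 desaturases on a log axis and a bar at the median of each genotype. Scd2 and Fads2 have no overlap between WT and KO, while for Scd1 and Fads1 the highest WT mouse, WT_415, lies above the lowest KO mouse, KO_391.

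Scd2 was nearly silent in WT liver and varied widely among KO mice. KO values ran from 13.3 CPM in KO_391 over a median of 43.0 to 213 CPM in KO_414, and WT values from 2.20 CPM in WT_409 over a median of 2.97 to 9.62 CPM in WT_415. The genotypes did not overlap, and KO_414 and KO_372, the latter at 174 CPM, stood above the other 8 KO mice, of which KO_434 was highest at 69.9 CPM. Means were 70.5 ± 67.5 CPM in KO and 3.70 ± 2.24 CPM in WT (10 mice each, SD), with a log2 fold change of 4.23 (SE 0.517, edgeR adjusted p = 1.12e-06). In fragments, Scd2 had 333 to 6290 per KO mouse and 36 to 209 per WT mouse, so counting error was small beside the spread between mice. The complete separation of all 10 KO above all 10 WT mice held for 7.2% of tested genes, and for Scd2 and Fads2 among the 5 desaturases.

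Despite its rise Scd2 remained a minor part of the Scd transcripts. Scd1 made up 99.0% to 99.9% of the summed RPKM of Scd1 to Scd4 in KO mice and 99.8% to 99.9% in WT mice. For every 1000 fragments of Scd1 there were 0.837 to 9.87 of Scd2 in KO (median 2.08) and 0.587 to 1.61 in WT (median 0.719). These ranges overlap: KO_453, KO_391 and KO_435 lay within the WT range, at 0.837, 1.18 and 1.54, and the highest values were those of KO_414 and of KO_372 at 7.12. How far multi-mapping Scd1 fragments entered the counts of the other Scd genes was not tested.

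Fads2, the delta-6 desaturase of the first step toward long polyunsaturated fatty acids, rose more than Fads1. Its KO values ran from 605 CPM in KO_404 over a median of 733 to 1261 CPM in KO_372, and its WT values from 106 CPM in WT_406 over a median of 219 to 428 CPM in WT_415. No WT mouse reached the lowest KO mouse. The means of 804 ± 212 CPM in KO and 248 ± 118 CPM in WT (10 mice each, SD) gave a log2 fold change of 1.70 (SE 0.237, edgeR adjusted p = 4.01e-06).

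Fads1, the delta-5 desaturase, ran from 605 CPM in KO_391 over a median of 757 to 1107 CPM in KO_372 in KO, and from 234 CPM in WT_406 over a median of 333 to 631 CPM in WT_415 in WT. The groups met only at their edges, with WT_415 above KO_391. Its means were 789 ± 160 CPM in KO and 386 ± 137 CPM in WT (10 mice each, SD), and its log2 fold change was 1.03 (SE 0.171, edgeR adjusted p = 2.51e-05). KO_372 was the highest KO mouse for both of these genes, and WT_406 the lowest WT mouse.

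Fads3 showed the smallest and least certain difference. KO values ran from 14.7 CPM in KO_435 over a median of 23.7 to 40.9 CPM in KO_425, and WT values from 6.46 CPM in WT_390 over a median of 14.2 to 30.0 CPM in WT_415. The genotypes overlapped broadly: 4 KO mice lay above all WT mice and 5 WT mice below all KO mice. Means of 25.8 ± 8.92 CPM in KO and 16.2 ± 7.84 CPM in WT (10 mice each, SD) gave a log2 fold change of 0.68 (SE 0.261; edgeR adjusted p = 0.0323; two-sided permutation test p = 0.0147). The call ended when any 1 of KO_402, KO_416, KO_425, KO_434, WT_389, WT_408, WT_427 and WT_441 was left out, with adjusted p from 0.0509 to 0.0653, and held without each of the other 12 mice. KO_425, the highest KO mouse for Fads3 and for Scd1, was the second lowest KO mouse for Fads1.

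Individual mice and libraries moved with these values. WT_415 was the highest WT mouse for all 5 genes, and KO_391 the lowest KO mouse for Scd1, Scd2 and Fads1. KO_391 had the largest share of multi-mapping fragments among KO mice, 8.46%, and WT_441, WT_415 and WT_429, the 3 WT mice with the smallest shares at 3.38%, 5.06% and 5.77%, were the 3 highest WT mice for Scd1 and for Fads1. With the multi-mapping share as a covariate, a fit chosen after seeing the data, Scd1 had a log2 fold change of 1.09 (edgeR adjusted p = 0.00150), Scd2 of 2.81 (adjusted p = 0.00920) and Fads2 of 1.07 (adjusted p = 0.00822). In that fit Fads1, at 0.40 (adjusted p = 0.0647), and Fads3, at 0.48 (adjusted p = 0.386), did not pass, so that 3 of the 5 desaturases were called, while 2156 genes, or 15.8% of those tested, were called higher and 2187, or 16%, lower, 4343 in all in place of 8040. The share and the genotype are largely confounded. With KO_391 and WT_415 both left out all 5 desaturases were called, with log2 fold changes of 2.54 for Scd1, 4.67 for Scd2, 1.21 for Fads1, 1.88 for Fads2 and 0.88 for Fads3.

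**Figure D2:**
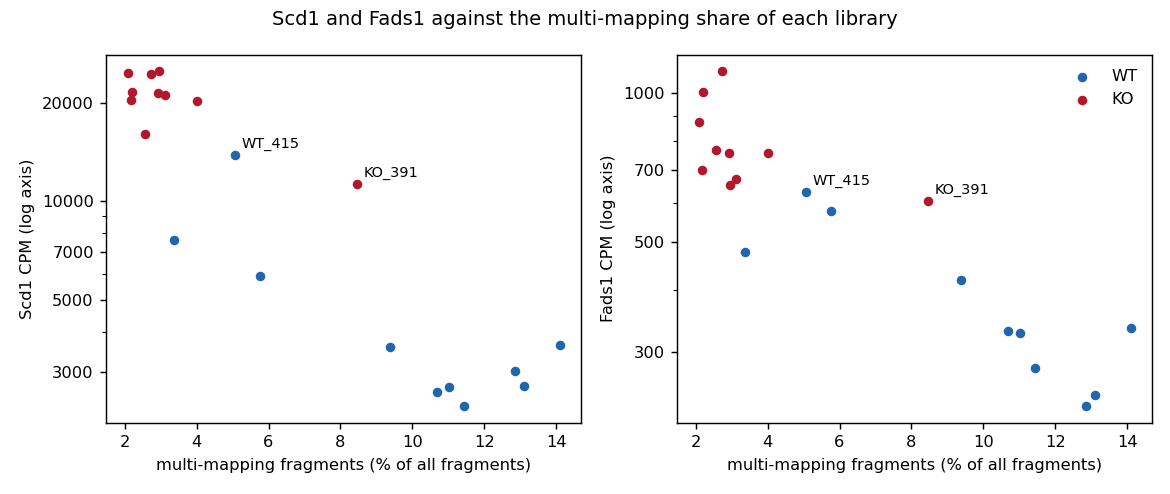
Each point is 1 library, with the share of fragments that mapped to more than 1 place on the horizontal axis and the CPM of Scd1 (left) or Fads1 (right) on a log axis. KO libraries other than KO_391 lie between 2.09% and 4.02%, and the WT libraries with the smallest shares have the highest WT levels.

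The balance between desaturases within a liver was compared through ratios of RPKM, in which library scaling cancels except through the 0.1 RPKM added to each level, an amount that matters for Scd2, at 0.403 to 1.76 RPKM in WT. Of the 10 pairs of genes 9 differed in log2 ratio between the genotypes (two-sided permutation tests, adjusted over the 10 pairs). Scd1 gained on each Fads gene: the log2 ratio of Fads1 to Scd1 went from -2.98 ± 0.473 in WT to -4.22 ± 0.318 in KO (10 mice each, SD; difference -1.24, SE 0.180, permutation test adjusted p = 1e-04). For Fads3 to Scd1 the difference was -1.59 (adjusted p = 0.00012). For Fads2 to Scd1 it was -0.52 (adjusted p = 0.0344), a call that ended without any 1 of KO_404, KO_425, KO_435, KO_453, WT_390, WT_407, WT_409, WT_427 and WT_429, with adjusted p from 0.0502 to 0.0673.

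Fads2 gained on Fads1. Its level per kilobase exceeded that of Fads1 in all 20 mice. The log2 ratio of Fads2 to Fads1 was 0.49 ± 0.298 in WT, from 0.059 to 0.97, and 1.21 ± 0.181 in KO, from 0.95 to 1.47 (10 mice each, SD). Only the lowest KO ratio fell within the WT range, and the difference of 0.72 (SE 0.110) had a permutation test adjusted p of 1e-04. Fads2 also gained on Fads3, with a difference of -1.07 in the log2 ratio of Fads3 to Fads2 (permutation test adjusted p = 0.00137). The ratio of Fads3 to Fads1, with a difference of -0.35 (SE 0.269), was the pair that missed the threshold (adjusted p = 0.208).

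Scd2 gained on every other desaturase with 0.1 RPKM added. The log2 ratio of Scd2 to Scd1 rose by 1.36 (SE 0.381, permutation test adjusted p = 0.00133), and those of Fads1, Fads2 and Fads3 to Scd2 had differences of -2.60, -1.88 and -2.95 (adjusted p = 1e-04, 0.000233 and 1e-04). The ratio of Scd2 to Scd1 overlapped between the genotypes, and with 1 RPKM added in place of 0.1 its difference was 0.34 and did not pass (permutation test adjusted p = 0.375). With 1 RPKM added the differences of Fads1, Fads2 and Fads3 to Scd2 were -1.58, -0.86 and -2.03 and still passed (permutation test adjusted p = 0.00022, 0.0307 and 0.000125). In order of RPKM, WT livers had Scd1 at 994, Fads2 at 165, Fads1 at 111, Fads3 at 4.95 and Scd2 at 0.679 on average. KO livers had Scd1 at 4265, Fads2 at 533, Fads1 at 228, Scd2 at 12.9 and Fads3 at 7.90. Fads3 exceeded Scd2 in every WT mouse, by 1.65 to 4.09 on the log2 scale, whereas in KO the log2 ratio ran from -2.48 to 1.38 and the levels of these neighbours in the order could not be separated from the spread between mice.

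**Figure D3:**
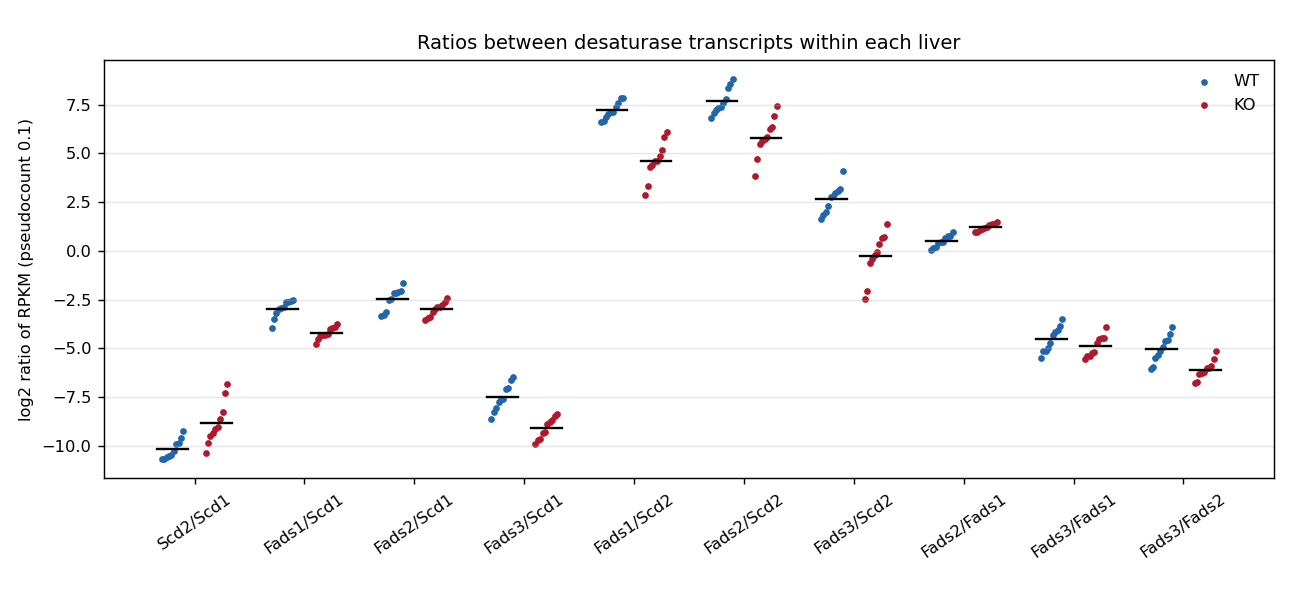
Points are log2 ratios of RPKM between 2 desaturases in 1 mouse, with 10 WT and 10 KO mice per pair and a bar at the mean. The ratio of Fads2 to Fads1 is tight in KO, from 0.95 to 1.47, while the ratios with Scd2 spread widely in KO.

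Within a genotype, the desaturases did not all vary together. Pearson and Spearman correlations of log2 CPM were computed for the 10 pairs of desaturases and for each desaturase with Srebf1 and with Hsd17b12, 20 relations in each genotype and 40 in all, which share libraries and scaling. Fads1 and Fads2 had r = 0.93 in WT (permutation test adjusted p = 0.0056; rho = 0.95, adjusted p = 0.0044) and r = 0.86 in KO (adjusted p = 0.0217; rho = 0.78, adjusted p = 0.128). Without the 2 mice farthest from the median of Fads1, r was 0.86 in WT and 0.82 in KO. Scd1 and Fads1 had r = 0.86 in WT (permutation test adjusted p = 0.0108; rho = 0.77, adjusted p = 0.128), and 0.82 without WT_415 and WT_441. In KO these genes had r = 0.50 (adjusted p = 0.294); the difference between the genotypes was not tested.

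Scd2 and Fads1 had r = 0.92 in KO (permutation test adjusted p = 0.0056; rho = 0.84, adjusted p = 0.075), and 0.80 without KO_372 and KO_414. In WT Scd1 and Scd2 had r = 0.80 (adjusted p = 0.085), which fell to -0.036 without WT_415 and WT_441 and so rested on those mice. No relation of a desaturase with Srebf1 or Hsd17b12 passed. By Pearson's r the largest of these was Srebf1 with Scd1 in WT, with r = 0.65 (permutation test adjusted p = 0.167; rho = 0.71, adjusted p = 0.135), and by Spearman's rho Srebf1 with Fads1 in WT, with rho = 0.73 (permutation test adjusted p = 0.134). Fads3 had no passing relation with any of the other 4 desaturases. With library size scaling alone 9 of the 40 relations passed in place of 4.

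**Figure D4:**
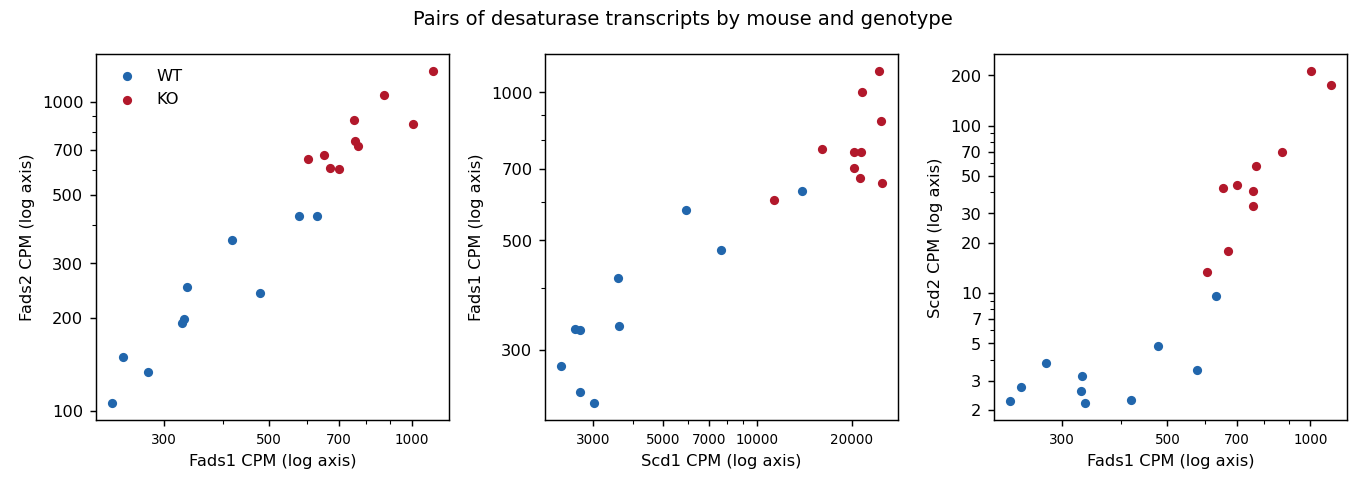
Each point is 1 mouse, with CPM of 2 desaturases on log axes: Fads2 against Fads1, Fads1 against Scd1, and Scd2 against Fads1. Fads2 follows Fads1 in both genotypes, while Scd2 stays under 10 CPM in all WT mice.

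The genes most like each desaturase across the 20 mice were searched among 10781 genes after the mean of each genotype had been subtracted, by Pearson's r of log2 CPM; these values are descriptions. Fads1 was most like Elovl2, an elongase of polyunsaturated fatty acids, with r = 0.96, then Fads2 (0.91), Grk3 (0.85) and Npc2 (0.85), the last a cholesterol carrier of the lysosome. Fads2 was most like Fads1, Adam10 (0.89), Rora (0.89) and Elovl2 (0.88). Elovl2 itself had 738 CPM in KO and 527 CPM in WT and a log2 fold change of 0.49 (edgeR adjusted p = 0.0233), less than that of either desaturase it followed. Scd1 was most like Tspan9 (0.89), the lysosomal acid lipase gene Lipa (0.87), the elongase gene Elovl5 (0.86) and Cds2 (0.85), a CDP-diacylglycerol synthase. Likeness could differ by genotype: Cds2 with Scd1 had r = 0.92 in WT and 0.30 in KO, and Grk3 with Fads1 0.92 in WT and 0.59 in KO.

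The genes most like Scd2 were of another kind: Nid2 (r = 0.87), Col6a3 (0.83), Col1a1 (0.81) and Col3a1 (0.81), a nidogen of basement membranes and collagen chains. Col1a1 and Col3a1 are markers of hepatic stellate cells, and their r with Scd2 within KO was 0.83 and 0.84. The summed level of 10 stellate cell markers ran from 306 to 565 CPM in KO and from 164 to 330 CPM in WT. It was highest in KO_414, KO_416 and KO_372, at 565, 528 and 522 CPM. KO_414 and KO_372 had the most Scd2, while KO_416 had 57.3 CPM of it. The sum contains Col1a1 and Col3a1, which were found by their r with Scd2 in these same mice. Its order among the mice is therefore not separate from that search. KO_414 also had the highest sum of 8 B and T cell markers, 15.8 CPM. The part of cells other than hepatocytes in the Scd2 level was not tested, and in bulk tissue more cells of a type and more RNA per cell cannot be told apart. Fads3 was most like Parp14 (0.78), Klf10 (0.76), Zfp36l2 (0.75) and Daxx (0.73), with lower r than the other 4 desaturases.

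Of 5 other desaturase genes examined, Scd3, Scd4, Degs1, Degs2 and Fads6, 4 rose. With library size scaling 5 rose, and with the multi-mapping covariate 3 rose. Of all tested genes 28.4%, 68.4% and 15.8% were called higher in these fits, in that order. Scd3 and Scd4, copies of Scd1 in the same cluster, had log2 fold changes of 3.15 (edgeR adjusted p = 1.38e-05) and 2.56 (2.86e-06) at means of 9.24 ± 5.64 against 1.01 ± 1.13 CPM and 1.40 ± 0.599 against 0.224 ± 0.187 CPM (10 mice each, SD). KO_414 was the highest mouse for Scd3 and KO_391 the lowest KO mouse for both. Per 1000 fragments of Scd1, Scd3 had 0.240 to 1.07 fragments in KO and 0.0622 to 0.339 in WT, and Scd4 had 0.0328 to 0.0973 and 0.0207 to 0.0678, so that both stayed a minute share of the family. With the multi-mapping share as a covariate the log2 fold changes were 1.59 for Scd3 and 1.26 for Scd4.

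The sphingolipid desaturases rose less. Degs1, which forms the double bond of ceramide, had 87.4 ± 6.87 CPM in KO and 57.7 ± 11.2 CPM in WT (10 mice each, SD) with no overlap and a log2 fold change of 0.60 (edgeR adjusted p = 7.27e-06), or 0.30 with the multi-mapping covariate. Degs2, whose exons overlap those of Evl, rose by 0.91 from a mean of 0.896 CPM (adjusted p = 8.60e-04), a call that ended with that covariate (0.44, adjusted p = 0.296). Fads6 had 29.0 ± 5.13 CPM in KO and 23.2 ± 6.32 CPM in WT and did not pass, at 0.32 (adjusted p = 0.0656).

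The steps that feed and follow desaturation were described from lists of genes. In fatty acid synthesis, which supplies the saturated chains that Scd1 acts on, 8 of 11 tested genes rose and 0 fell, with a median log2 fold change of 1.19 beside -0.021 for all tested genes. Fasn, fatty acid synthase, rose by 2.23, the acetyl-CoA carboxylases Acacb and Acaca by 1.71 and 1.24, and Me1, the malic enzyme that supplies NADPH, by 1.53, each with no overlap between the genotypes. All 10 KO lay above all 10 WT mice for 7.2% of all tested genes. With library size scaling 10 of the 11 were called higher, and with the multi-mapping covariate 4. The shares of all tested genes called higher were 28.4% with TMM factors, 68.4% with library size scaling and 15.8% with the covariate. With TMM factors 30.5% of all tested genes were called lower.

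In the elongation cycle 7 of 12 tested genes rose and 2 fell, with a median of 0.47. With library size scaling 10 of these rose and 2 fell, and with the multi-mapping covariate 5 rose and 2 fell. Elovl5, which elongates the product of Fads2, rose by 1.41 from 487 to 1299 CPM. Elovl7 rose by 4.97 from 0.401 to 12.3 CPM, and Elovl1, whose exons overlap those of Cdc20, by 0.55. Hsd17b12 fell by 1.66. The other gene that fell, Elovl3, whose exons overlap those of Pitx3, had a log2 fold change of -2.55 (edgeR adjusted p = 7.09e-05). Its means were 708 CPM in WT and 121 CPM in KO, and the genotypes overlapped. Of 6 tested genes of the electron supply 3 rose and 1 fell, with a median of 0.077. Cyb5a, the microsomal cytochrome b5 that hands electrons to the desaturases, fell from 762 to 487 CPM, with a log2 fold change of -0.64 and no overlap, and had -0.17 with library size scaling alone. The reductases Cyb5r1, Cyb5r3 and Cyb5r4 rose by 0.49, 0.28 and 0.16. With library size scaling 4 of the 6 rose and 0 fell, and with the multi-mapping covariate 0 rose and 1 fell. Of all tested genes 28.4% were called higher with TMM factors, 68.4% with library size scaling and 15.8% with the multi-mapping covariate. In that order 30.5%, 6.72% and 16% were called lower.

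**Figure D5:**
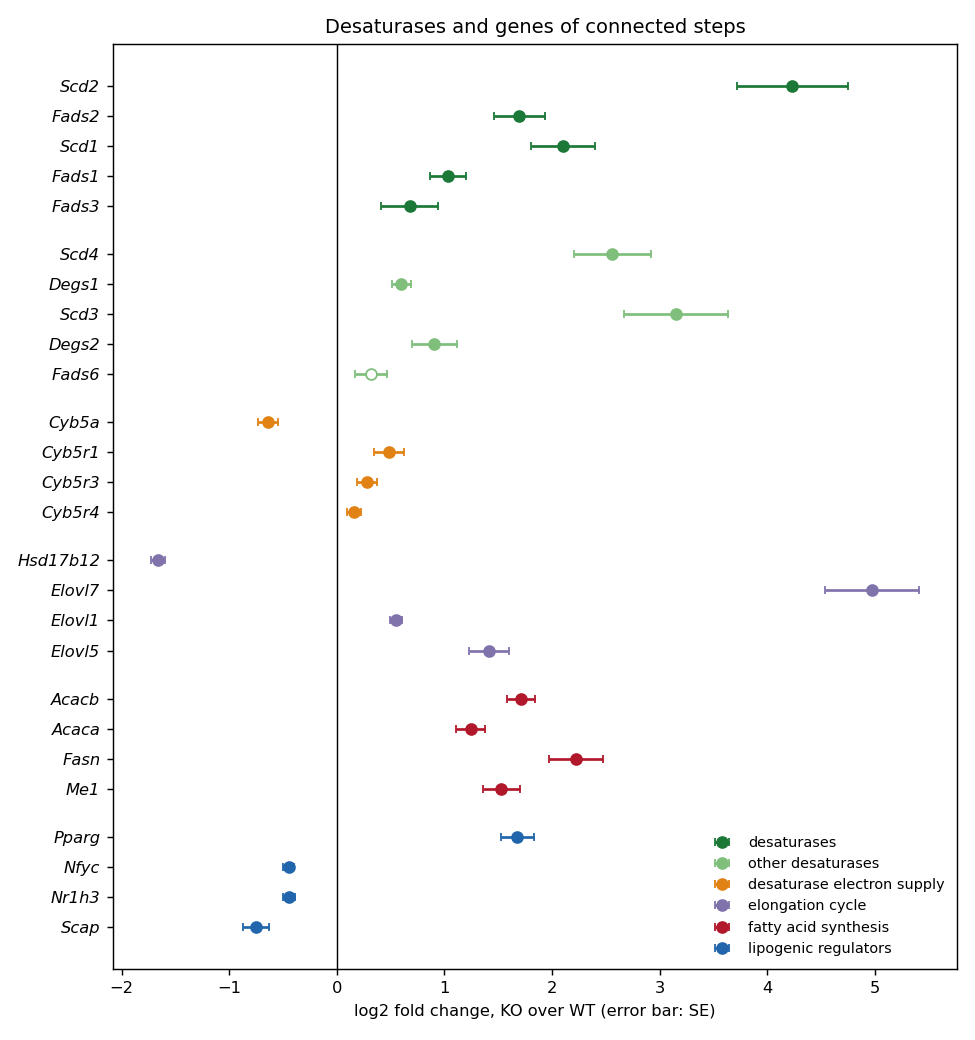
Log2 fold changes of KO over WT with their SE for the desaturases and for up to 4 called genes of each connected list, filled points having an edgeR adjusted p under 0.05. The desaturases and the genes of fatty acid synthesis lie to the right of 0, while Cyb5a, Hsd17b12, Nfyc, Nr1h3 and Scap lie to the left with TMM factors.

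With TMM factors the RNA of the regulators known for these genes did not rise as a group. The activity of their proteins was not measured. Srebf1 had 131 ± 35.7 CPM in KO and 144 ± 62.9 CPM in WT (10 mice each, SD), a log2 fold change of -0.13 (edgeR adjusted p = 0.642) that was 0.31 with library size scaling and -0.74 with the multi-mapping covariate (adjusted p = 0.0522); its exons overlap those of Rai1. Of 23 lipogenic regulators tested, 5 rose and 12 fell, with a median of -0.19 that became 0.27 with library size scaling, where 12 rose and 1 fell. With the multi-mapping covariate 3 rose and 9 fell. Of all tested genes 28.4% were called higher and 30.5% lower with TMM factors, and 68.4% and 6.72% with library size scaling. Pparg, a nuclear receptor of lipid storage, rose by 1.68 from 5.07 to 16.3 CPM with no overlap. Scap, the escort protein of the SREBPs, had -0.75 and -0.31 under the respective scalings. Nr1h3, the oxysterol receptor LXR-alpha, had -0.44 and Nfyc, a subunit of NF-Y, -0.45, and with library size scaling both were near 0 at 0.023 and 0.017.

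Genes that use unsaturated chains went both ways. Among genes of acyl activation and transfer 9 of 18 tested rose and 3 fell, with a median of 0.33. Acsl4, an acyl-CoA synthetase that prefers arachidonate, rose by 1.14 with no overlap and Acsl5 by 1.10, while Dgat2, which makes triglyceride from diacylglycerol, had -0.98 and Agpat2 -0.64. In the oxidation of unsaturated fatty acids 6 of 11 tested genes rose and 2 fell, with a median of 0.27: Decr1, the mitochondrial dienoyl-CoA reductase, rose by 0.49 and Acaa1b, a peroxisomal thiolase, by 1.20, whereas Pecr, a peroxisomal enoyl-CoA reductase, had -1.32 and Scp2 -0.73. In eicosanoid synthesis, which starts from the arachidonic acid that Fads1 makes, 7 of 17 tested genes rose and 3 fell, with a median of 0.33. Ephx1, an epoxide hydrolase, and the phospholipase Pla2g6 rose by 0.76 and 0.72, Ptgr1 rose by 1.34, and Ptgds, a prostaglandin D synthase, fell by 3.46 from 5.97 to 0.540 CPM. With library size scaling the counts of these 3 lists were 15 higher and 1 lower, 9 and 2, and 13 and 1, in that order. With the multi-mapping covariate 4, 7 and 3 rose and 2, 2 and 1 fell. Of all tested genes 28.4% were called higher and 30.5% lower with TMM factors. These shares were 68.4% and 6.72% with library size scaling, and 15.8% and 16% with the covariate.

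Markers of liver cell types differed between the same libraries. All 10 hepatocyte markers were lower in KO, Ahsg, Ttr, Asgr1 and Fgb with -1.13, -1.22, -0.62 and -0.98, though 5 were lower and 1 higher with library size scaling and 8 were lower with the multi-mapping covariate. Their sum was 49656 to 64770 CPM in KO and 79956 to 114359 CPM in WT. Alb was the largest part of this sum, with means of 35516 CPM in KO and 59310 CPM in WT. Within KO the sum was lowest in KO_391, the KO mouse with the least Scd1, and highest in KO_372, the KO mouse with the most Fads1 and Fads2. Other KO mice did not keep to such an order. KO_425, with the most Scd1, had a sum of 52726.5 CPM, and KO_416, with 16020 CPM of Scd1, had 62471 CPM. Of 12 macrophage markers 10 rose and 0 fell, including Cd9, Lyz2, Cd68 and Gpnmb, with sums of 380 to 684 CPM in KO and 165 to 313 CPM in WT; 11 rose with library size scaling, and 10 rose and 1 fell with the covariate. Of 10 stellate cell markers 8 rose and 0 fell, including Col1a2, Dcn, Col1a1 and Lrat, and 8 rose with library size scaling but 3 with the covariate. Of 9 endothelial markers 3 rose and 0 fell (Cdh5, Pecam1 and Lyve1; sums 298 to 381 CPM in KO and 218 to 382 in WT); 9 rose with library size scaling, 6 with limma-voom and 0 with the covariate. Of 7 tested cholangiocyte markers 3 rose (Epcam, Spp1 and Cd24a) and 2 fell, while 4 rose and 0 fell with library size scaling and 2 rose and 1 fell with the covariate. Their sums were 65.5 to 206 CPM in KO and 40.6 to 78.2 in WT. Of the 3 tested B and T cell markers 0 were called, with sums of 1.64 to 15.8 CPM in KO and 1.47 to 13.2 in WT, the latter in WT_415, and 1 was lower with the covariate. No marker was at 0 in all mice of a genotype. Of all tested genes 28.4% were called higher with TMM factors, 68.4% with library size scaling and 15.8% with the covariate. The shares called lower were 30.5%, 6.72% and 16%, in that order. The part of these cell types in the desaturase levels was not tested.

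In the authors' deposited table of the ROTS test, the log2 fold changes were 3.54 for Scd2, 2.32 for Scd1, 1.80 for Fads2, 1.08 for Fads1 and 0.71 for Fads3, in the same order of size as the edgeR values. The largest false discovery rate among them was 0.00696, that of Fads3, in the authors' deposited table. The gene ontology term for unsaturated fatty acid metabolism, with 75 annotated genes, had a false discovery rate of 4.96e-08 in the authors' deposited table, and that for unsaturated fatty acid biosynthesis, with 27 annotated genes, 0.0266.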

How the data were processed

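Liver RNA of 20 mice was sequenced. The authors deposited whole-number counts of fragments per Entrez gene on mm10, a normalized signal, RPKM values, a ROTS table with log2 fold changes, p-values and false discovery rates, and gene ontology tables with a p-value per term. The deposited signal equalled CPM scaled by TMM factors, with a largest relative deviation of 4.88e-15. HISAT2 2.0.5 and DESeq2 are named in the submitters' processing notes, and Rsubread and ROTS in the names of the deposited tables; no source used here gives a strand setting. Per the file headers of the deposited fragment statistics, 0 fragments were set aside as multi-mapping in any mouse, so that such fragments entered the counts; 21 columns of these statistics were not used.

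KO was compared with WT by edgeR 4.0.16 (R 4.3.3) on the counts: TMM factors, filterByExpr (minimum count 10, minimum total 15), a quasi-likelihood F test with robust dispersion, and Benjamini-Hochberg adjustment over 13670 genes at a threshold of 0.05. The genes left out held 0.0858% of fragments. A prior count of 2 was used for log2 CPM, and for ratios a pseudocount of 0.1 RPKM. Single values, ratios and correlations were compared by permutation tests with 100000 resamples. The fit was also run on simulated counts in which few genes changed, equally in both directions. Such counts do not show how it behaves where many genes change, as in these livers. The deposited coordinates have the mm10 build, the same as GRCm38 of the GENCODE transcripts used for sequences.

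The desaturases and the lists of genes were chosen with earlier results of these data known. Named genes were Hsd17b12, the 5 desaturases and the 5 other desaturase genes examined, and up to 4 called genes with the smallest adjusted p per list. The 4 genes most like each desaturase (mean log2 CPM not under 1, predicted genes left out) were also named. Srebf1 was fixed for the relations, and Elovl3 was added as the other elongation gene that fell. A gene that met this rule is not reported here. Alternatives were other scalings (DESeq2 size factors, upper quartile, library size), no filter or a CPM of at least 1 in 10 mice, DESeq2 1.42.0, limma 3.58.1 on voom values with quality weights or on log2 RPKM, assigned fragments as a covariate, and each mouse left out; the multi-mapping covariate and the joint omission of KO_391 and WT_415 were added after the data were seen.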

Additional observations from a re-analysis of the deposited data

Results flagged for a closer look

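Scd2 in WT mouse WT_415 stood apart from the other WT mice, with a log2 CPM of 3.28 where the other 9 lay between 1.19 and 2.29. Its distance from the next mouse was 0.475 of the range of the WT group, which exceeds the limit of Dixon's test for 10 samples. It was the 1 case among 30 groups of values examined (the 5 desaturases and their 10 ratios in each genotype), where chance gives about 1 in 20. The same mouse was the highest WT mouse for the other 4 desaturases and had 5.06% multi-mapping fragments against a WT median of 10.8%.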

How the results depend on the processing

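The higher level of Scd1, Scd2 and Fads2 in KO kept its direction and its call under every alternative run, and that of Fads1 under all but 1. With the multi-mapping share as a covariate, added after the data were seen, 4343 genes were called in place of 8040, 3 of the 5 desaturases were called, and Fads1 and Fads3 missed the threshold at 0.40 and 0.48. Fads3 also missed it without a filter on low counts, at 0.68, with assigned fragments as a covariate, at 0.56, and without any 1 of 8 mice, its values with a mouse left out running from 0.58 to 0.82. Srebf1, not called, changed sign with library size scaling (0.31), with KO_391 and WT_415 both left out (0.020) and without WT_441 (0.027), and was -0.74 (adjusted p = 0.0522) with the multi-mapping covariate; its range with 1 mouse left out was -0.22 to 0.027. The relations that passed numbered 4, and 9 with library size scaling. Genes called with 1 mouse left out numbered 7661 to 8197, and ratios that differed 8 to 9. Fads6 passed with library size scaling (0.77), DESeq2 (0.33), limma-voom (0.41) and without KO_416, WT_427 or WT_429. The causes of these changes were not tested. No paired analysis was possible because animal numbers are not shared between the genotypes. Depth limits the rarer genes: WT mice had 1 to 13 fragments of Scd4 and 3 to 77 of Scd3.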
